A study of Mus musculus with 16 samples.

Results

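Integrins are the receptors that fasten cells to the matrix around them and, in blood-borne cells, to other cells. The values below are the mRNA levels of 10 integrin subunits in mouse chondrocyte-enriched cultures, out of 55414 gene identifiers counted in each library. They were chosen by gene symbol and not by a cutoff on measured values, though with earlier results of these data known. They are the 4 α subunits of the collagen receptors (*Itga1*, *Itga2*, *Itga10* and *Itga11*), the α subunit of the fibronectin receptor (*Itga5*) and the αv subunit (*Itgav*). With them come their partners β1 (*Itgb1*) and β3 (*Itgb3*), and the leukocyte subunits β7 (*Itgb7*) and αL (*Itgal*). All 10 had enough counts to be tested in every comparison.

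Each integrin is a pair of 1 α and 1 β subunit, both of which cross the membrane and have to be made together for the receptor to reach the cell surface. The outer part grips a ligand such as collagen, fibronectin or a cell adhesion molecule, and the short inner tails are held to the actin skeleton by adaptor proteins such as talins and kindlins. In cartilage, β1 integrins anchor chondrocytes in the collagen- and fibronectin-containing matrix, whereas β7 and αL are known for homing and adhesion of lymphocytes and other white blood cells.

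The study asked how a gain of NOTCH2 function changes the response of chondrocytes to tumor necrosis factor α (TNFα), a cytokine of inflamed joints. Cells came from the epiphyses of long bones of 3- to 4-day-old C57BL/6 mice, with males and females pooled, and were either heterozygous for *Notch2* tm1.1Ecan or from control littermates, which the labels call wild type. The allele ends NOTCH2 before its PEST domain, the stretch that marks the active receptor for breakdown, and it is a global knock-in, so every cell type in the culture carries it. The cells received TNFα at 50 ng/ml or phosphate-buffered saline as vehicle for 6 h, with 4 biological replicates in each of the 4 groups and 16 libraries sequenced as 1 pool. Serum removal before treatment is recorded in the labels for the TNFα groups alone, whereas the study records it for both, so a part of serum in the TNFα comparisons cannot be told apart from TNFα.

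Counts on genes ranged from 13471143 to 18677402 in control vehicle libraries, from 14781440 to 44237300 in *Notch2* tm1.1Ecan vehicle libraries, from 12552727 to 19220459 in control TNFα libraries and from 3439726 to 17155897 in *Notch2* tm1.1Ecan TNFα libraries. Levels are given as counts-per-million (CPM) values after trimmed-mean (TMM) scaling, with the SD over 4 libraries, and library values follow the order of replicates 1 to 4. Differences are log2 fold changes from edgeR's quasi-likelihood test. Their standard error (SE) was derived from that test, as the absolute log2 fold change divided by the square root of its F statistic. A gene is called higher or lower at a Benjamini-Hochberg adjusted p under 0.05, taken over all genes tested.

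The label of the cells was checked against markers of chondrocytes. All 16 chondrocyte markers had counts, and their most abundant gene was *Col2a1*, the main collagen of cartilage, at a mean of 25857 CPM. Fibroblast and perichondrium markers were high as well, with *Col1a1* at a mean of 15106 CPM. The study calls the cells chondrocyte-enriched, and whether chondrocytes or other cells held the *Col1a1* transcripts was not tested. For the genotype, *Heyl*, a direct NOTCH target, was higher in *Notch2* tm1.1Ecan cells, with a log2 fold change of 3.04 ± 0.33 (SE; adjusted p = 6.25e-07) in vehicle and 2.46 ± 0.42 (SE; adjusted p = 0.000144) in TNFα. For the treatment, *Icam1*, an adhesion molecule induced by TNFα, stood at 34.4, 39.4, 40.4 and 439 CPM in control vehicle libraries and at 2589.6, 2689, 2828 and 2312 CPM in control TNFα libraries.

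Some libraries stand apart from their group, 1 of them in those *Icam1* values. Control vehicle replicate 4 had more TNFα response transcripts than the other vehicle libraries: 12 such genes summed to 186, 185, 199 and 1450.4 CPM in the control vehicle libraries. On the first principal component, which held 68.7% of the variance, this library lay at -18.3 against -54.4 to -51.9 for the other vehicle libraries, and control TNFα replicate 4 lay at 37.0 against 48.7 to 52.8 for the other TNFα libraries. The *Notch2* tm1.1Ecan TNFα replicate 4 was the shallow library, with 3439726 counts, and lay at -44.7 on the second component, where the other 3 of its group lay between -10.0 and -8.54. Compared gene by gene, *Notch2* tm1.1Ecan vehicle replicate 1 differed from the other 3 of its group by a chi-square per degree of freedom of 11.7, 9.99 and 10.7, against 3.08 to 3.77 among those 3, beside 9.31 to 13.5 for control vehicle replicate 4. Among control TNFα libraries replicates 2 and 3 agreed best, at 2.99, while replicate 4 differed from replicates 1, 2 and 3 by 7.45, 13.2 and 14.6 and replicate 1 from replicates 2 and 3 by 8.68 and 9.71. Integrin calls that change when 1 of these libraries is left out are given with and without it.

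Per kilobase of exon, the 10 integrins spanned more than 3 orders of magnitude in control vehicle cells. The shared β1 subunit *Itgb1* was the highest, at 194 ± 5.15 CPM per kb (SD, n = 4), followed by the fibronectin receptor subunit *Itga5* at 54.4 ± 2.22 CPM per kb. Next in the per-kilobase order came *Itgav* at 15.9 ± 1.83 and *Itga11* at 15.3 ± 0.717 CPM per kb, which lay within their spread of each other. *Itga10* followed at 10.6 ± 0.419 and *Itga1* at 4.35 ± 0.291 CPM per kb. *Itgb3* at 1.85 ± 0.150 and *Itgb7* at 1.60 ± 0.281 CPM per kb again lay within their spread of each other. The lowest per kilobase were *Itga2* at 0.871 ± 0.403 and the leukocyte subunit *Itgal* at 0.126 ± 0.0317 CPM per kb.

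Per kilobase of exon, that order shifted with TNFα in both genotypes, and it differed between genotypes with TNFα but not in vehicle. In control TNFα libraries *Itga2* stood sixth, at 4.54 ± 0.680 CPM per kb, and *Itga1* eighth, at 2.04 ± 0.349 CPM per kb, within the spread of *Itgb7* at 1.93 ± 0.342. *Itga10*, at 14.1 ± 0.791 CPM per kb, stood above *Itga11*, at 8.79 ± 0.480 CPM per kb, in those libraries. In *Notch2* tm1.1Ecan vehicle libraries the order of the 10 was that of control vehicle libraries, with *Itga10* at 7.95 ± 0.0962 and *Itga1* at 6.16 ± 0.880 CPM per kb. In *Notch2* tm1.1Ecan TNFα libraries *Itga11*, at 11.9 ± 0.447 CPM per kb, stood above *Itga10*, at 10.2 ± 0.363 CPM per kb, and *Itga1* and *Itga2* lay within their spread of each other at 3.17 ± 0.0369 and 3.03 ± 0.412 CPM per kb. Of the exon bases of *Itga10*, 33.5% are shared with another gene on the same strand and were kept in its length. Its per-kilobase levels may therefore be too low, so its place beside *Itga11* is not settled by these values. Scaled to the longest transcript in place of all exons, *Itga1* in control vehicle libraries came to 8.33 CPM per kb and *Itgav* to 26.5 CPM per kb, and in *Notch2* tm1.1Ecan vehicle libraries *Itga1* passed *Itga10*. With that length several of the orders above change: *Itgav* lay beyond the spread of *Itga11* (17.7 CPM per kb) in control vehicle libraries. In control TNFα libraries *Itga1*, at 3.91 CPM per kb, stood seventh, within the spread of *Itga2* at 4.56 and *Itgb3* at 3.26 and beyond that of *Itgb7* at 2.00, and in *Notch2* tm1.1Ecan TNFα libraries, at 6.07 CPM per kb, it lay above *Itgb3* at 4.25 and *Itga2* at 3.04 beyond their spread.

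**Figure D1:**
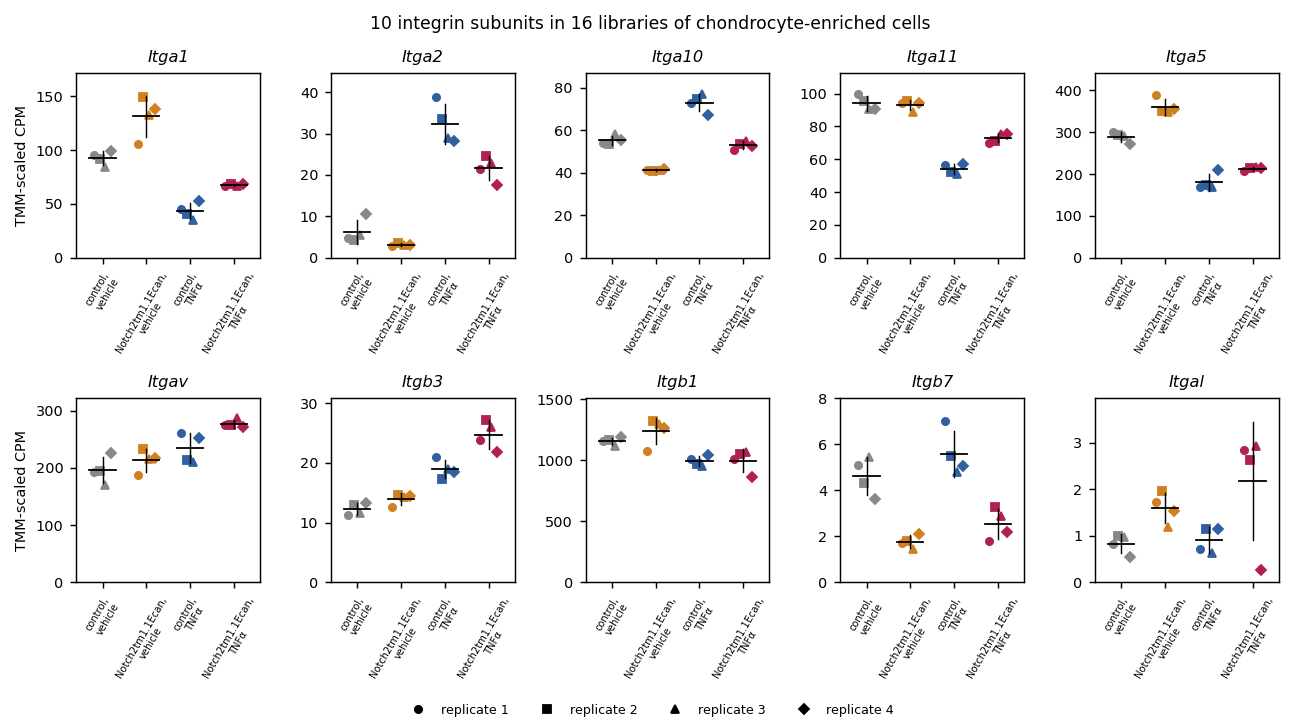
Level of each of the 10 integrin subunits in CPM (y axis, each panel starting at 0) in the 4 groups of genotype and treatment (x axis); points are the 4 libraries of a group and the bar is their mean. *Itga2* lies at 28.3 CPM or above in all control TNFα libraries and at 10.5 CPM or below in all control vehicle libraries.

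The first comparison asks what TNFα does to these receptors in control chondrocytes. The collagen receptors split: the α1 and α11 subunits fell, while α2 and α10 rose. The α subunit of the fibronectin receptor fell together with the common β1 partner, and β3 rose. In counts, 3 of 10 integrins were called higher, against 23.3% of the 19338 genes tested, and 4 lower, against 20.9%, or 44.2% of genes in either direction. Their median log2 fold change was 0.22, beside 0.04 for all genes tested.

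*Itga2* encodes α2, which with β1 forms a receptor that prefers fibrillar collagen. Its level was 4.64, 4.34, 5.41 and 10.5 CPM in the control vehicle libraries and 38.8, 33.5, 28.9 and 28.3 CPM in the control TNFα libraries. The groups do not overlap, and the highest vehicle value belongs to replicate 4, the library that carries TNFα response transcripts. The test gave a log2 fold change of 2.37 ± 0.29 (SE), adjusted p = 0.000654, and the log2 fold change was 2.75 without control vehicle replicate 4 and 2.81 without both control libraries numbered 4.

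*Itga10* encodes α10, a collagen receptor subunit typical of cartilage, and it moved in the same direction by less. Control vehicle libraries held 53.7, 53.5, 58.2 and 55.2 CPM and control TNFα libraries 72.9, 74.6, 76.9 and 67.3 CPM. All TNFα values lie above all vehicle values, the lowest TNFα value being replicate 4, and the log2 fold change was 0.41 ± 0.06 (SE; adjusted p = 2.82e-06).

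*Itga1* encodes α1, the partner of β1 in a receptor that prefers the network collagen of basement membranes. It stood at 95.7, 92.1, 84.6 and 99.0 CPM with vehicle and at 44.8, 41.0, 35.3 and 53.0 CPM with TNFα in control cells. Every TNFα library is below every vehicle library, and replicate 4 is the highest of each group. Among the 10 integrins this was the largest fall with TNFα, with a log2 fold change of -1.09 ± 0.12 (SE), adjusted p = 0.000119.

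*Itga11* encodes α11, a receptor subunit for fibrillar collagen typical of mesenchymal cells. The control vehicle libraries gave 99.8, 95.4, 90.8 and 90.5 CPM and the control TNFα libraries 56.5, 52.3, 51.0 and 56.9 CPM. The groups are far apart relative to their spread, with means of 94.1 ± 4.42 and 54.2 ± 2.95 CPM (SD, n = 4 each) and a log2 fold change of -0.79 ± 0.06 (SE), adjusted p = 2.52e-10.

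*Itga5* encodes α5, which pairs with β1 in the main receptor for fibronectin. Levels were 299.5, 294, 292 and 272 CPM with vehicle and 169, 173, 169 and 209 CPM with TNFα in control cells. The vehicle group is higher throughout, and TNFα replicate 4 sits between the other TNFα libraries and the vehicle group. *Itga5* fell with a log2 fold change of -0.68 ± 0.06 (SE; adjusted p = 1.43e-08). *Itgb1*, the β subunit shared by the α subunits above, was at 1158, 1164, 1114 and 1188 CPM with vehicle and 1011, 972, 954 and 1046 CPM with TNFα, groups that do not overlap. Its fall was the smallest among the called integrins here, with a log2 fold change of -0.21 ± 0.04 (SE; adjusted p = 0.000163).

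αv and β3 together form a receptor for vitronectin, osteopontin and other proteins that carry the RGD tripeptide. *Itgb3* stood at 11.3, 12.9, 11.6 and 13.3 CPM with vehicle and 21.0, 17.3, 18.9 and 18.5 CPM with TNFα. All TNFα libraries exceed all vehicle libraries, and the log2 fold change was 0.63 ± 0.09 (SE; adjusted p = 8.97e-06). *Itgav* stood at 193, 194, 171 and 226 CPM with vehicle and 261, 214, 210.1 and 252 CPM with TNFα. These groups overlap because vehicle replicate 4 is higher than TNFα replicates 2 and 3, and the log2 fold change of 0.26 ± 0.11 (SE; adjusted p = 0.0875) was not called. It passed the threshold with DESeq2 (adjusted p = 0.0188), with no filter beyond 1 count (adjusted p = 0.000117), in a fit of all 16 libraries (adjusted p = 0.0106) and with a replicate block (adjusted p = 0.000955). It also passed without control vehicle replicate 4, at 0.34 (adjusted p = 0.00759), and without control TNFα replicate 3, at 0.32 (adjusted p = 0.0333), with adjusted p-values from 0.000117 to 0.249 over its alternatives.

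The leukocyte subunits were not called with TNFα in control cells. *Itgb7*, whose product pairs with α4 or αE, was at 5.08, 4.34, 5.47 and 3.63 CPM with vehicle and 7.01, 5.49, 4.78 and 5.07 CPM with TNFα in control cells. *Itgal*, whose product pairs with β2 to form the receptor for ICAM-1 known as LFA-1, had 15, 13, 15 and 9 counts with vehicle, or 0.536 to 0.990 CPM, and 9, 21, 11 and 22 counts with TNFα, or 0.641 to 1.15 CPM. Both pairs of groups overlap, with log2 fold changes of 0.26 ± 0.16 (SE; adjusted p = 0.212) for *Itgb7* and 0.18 ± 0.34 (SE; adjusted p = 0.717) for *Itgal*.

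The same treatment was then compared in *Notch2* tm1.1Ecan cells. The collagen receptor subunits split the same way, *Itga2* and *Itga10* rising and *Itga1* and *Itga11* falling, and *Itga5* and *Itgb1* fell. *Itgb3* rose, and *Itgav* was called as well. In all, 4 of 10 integrins were called higher, against 22.6% of the 19633 genes tested, and 4 lower, against 21.9%, or 44.5% in either direction. The median log2 fold change of the integrins was 0.37, beside 0.03 for all genes tested.

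In *Notch2* tm1.1Ecan libraries the α2 transcript *Itga2* was at 2.76, 3.59, 3.06 and 2.97 CPM with vehicle and 21.4, 24.6, 22.9 and 17.7 CPM with TNFα. The vehicle libraries are close together and the TNFα libraries all lie several-fold above them. The test gave a log2 fold change of 2.84 ± 0.12 (SE), adjusted p = 6.38e-17, the largest rise among the 10 integrins. The cartilage collagen receptor subunit *Itga10* was at 41.2, 40.6, 41.4 and 41.8 CPM with vehicle and 50.6, 53.5, 55.1 and 52.7 CPM with TNFα, 4 tight values below 4 tight values. Its log2 fold change was 0.36 ± 0.07 (SE; adjusted p = 5.22e-05).

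The α1 transcript *Itga1* was at 106, 149.7, 132 and 139 CPM with vehicle and 66.9, 68.5, 67.1 and 68.1 CPM with TNFα. Vehicle replicate 1 is the lowest of its group, yet above every TNFα library, and the fall was -0.96 ± 0.08 on the log2 scale (SE; adjusted p = 2.18e-09). The α11 transcript *Itga11* was at 94.5, 95.4, 88.6 and 94.5 CPM with vehicle and 70.2, 71.4, 75.6 and 75.3 CPM with TNFα. Its groups do not overlap, and its log2 fold change was -0.35 ± 0.06 (SE; adjusted p = 3.40e-05).

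For the fibronectin receptor, *Itga5* was at 389.7, 350.1, 348 and 355 CPM with vehicle and 207, 215, 216 and 214 CPM with TNFα, with a log2 fold change of -0.76 ± 0.06 (SE; adjusted p = 1.91e-11). The common β1 subunit *Itgb1* was at 1079, 1319.8, 1296 and 1267 CPM with vehicle and 1013, 1052, 1066 and 865 CPM with TNFα, with a log2 fold change of -0.31 ± 0.07 (SE; adjusted p = 0.000904). Both genes are lower in all TNFα libraries than in all vehicle libraries, although *Itgb1* in vehicle replicate 1 lies nearer the TNFα group than the other 3 vehicle libraries do.

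For the RGD-binding pair, *Itgav* was at 187, 234, 215 and 217 CPM with vehicle and 274, 275, 287 and 271 CPM with TNFα, and *Itgb3* was at 12.5, 14.6, 14.3 and 14.5 CPM with vehicle and 23.8, 27.2, 26.0 and 21.8 CPM with TNFα. Neither gene overlaps between treatments. The log2 fold changes were 0.38 ± 0.06 (SE; adjusted p = 1.81e-05) for *Itgav* and 0.84 ± 0.09 (SE; adjusted p = 1.35e-08) for *Itgb3*. The call of *Itgav* in *Notch2* tm1.1Ecan and not in control cells is not a tested difference: its interaction of genotype and TNFα was 0.12 ± 0.11 (SE; adjusted p = 0.828).

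Neither leukocyte subunit was called with TNFα in *Notch2* tm1.1Ecan cells. *Itgb7* was at 1.72, 1.80, 1.45 and 2.12 CPM with vehicle and 1.79, 3.27, 2.87 and 2.21 CPM with TNFα, overlapping groups with a log2 fold change of 0.53 ± 0.23 (SE; adjusted p = 0.0679). It passed the threshold without TNFα replicate 1, at 0.70 (adjusted p = 0.0219), within a range of adjusted p-values from 0.0219 to 0.303 over its alternatives. *Itgal* was at 1.72, 1.95, 1.19 and 1.54 CPM with vehicle and 2.85, 2.63, 2.92 and 0.276 CPM with TNFα, where the last TNFα value is 1 count in the shallow library. The log2 fold change of *Itgal* was 0.67 ± 0.28 (SE; adjusted p = 0.0543). Without that library it was 0.82 (adjusted p = 0.00376) and without vehicle replicate 1 0.71 (adjusted p = 0.0306), and it also passed the threshold with RLE scaling (adjusted p = 0.0494) and with no filter beyond 1 count (adjusted p = 0.0259), within adjusted p-values from 0.00376 to 0.187 over its alternatives.

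**Figure D2:**
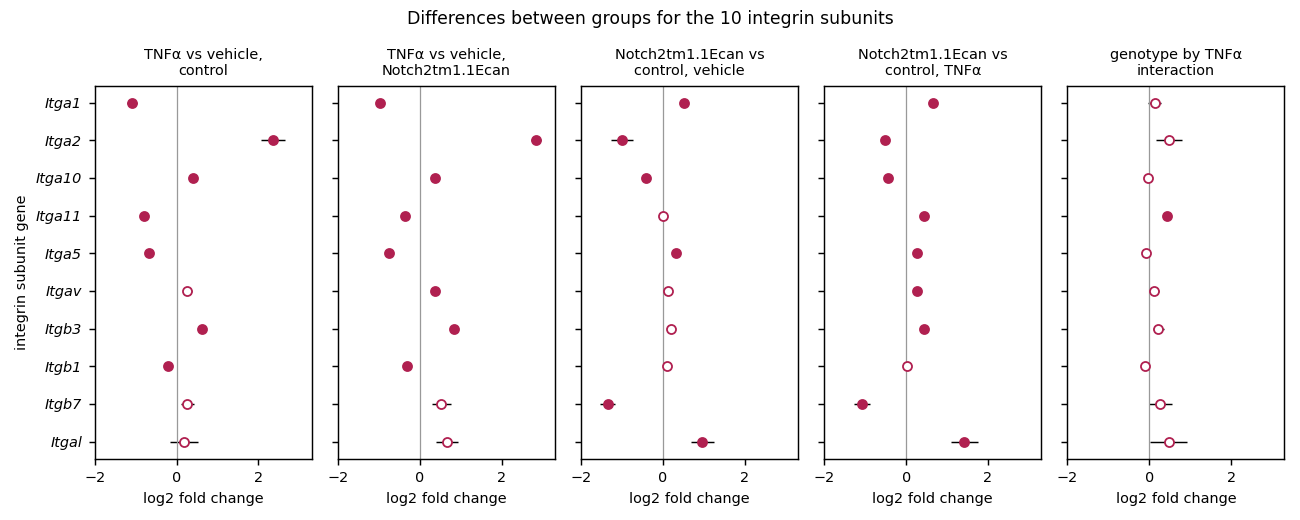
Log2 fold change of each integrin subunit (x axis) in the 4 comparisons of groups and in the interaction of genotype and TNFα, with bars of 1 SE; filled points are called at an adjusted p under 0.05. *Itga2* has the largest rise with TNFα in both genotypes, at 2.37 and 2.84, and *Itga11* is the 1 called interaction, at 0.44.

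The genotypes were next compared in vehicle. These comparisons reuse the groups described above, so they share samples with the TNFα comparisons. The *Notch2* tm1.1Ecan cells had more *Itga1* and *Itga5*, less *Itga2* and *Itga10*, less *Itgb7* and more *Itgal* than control cells. Of the 10 integrins, 3 were called higher, against 6.19% of the 19432 genes tested, and 3 lower, against 4.35%, or 10.5% in either direction. The median log2 fold change of the integrins was 0.12, beside -0.00 for all genes tested.

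In vehicle, *Itga1*, the α1 collagen receptor subunit, had means of 132 ± 18.8 CPM in *Notch2* tm1.1Ecan and 92.8 ± 6.20 CPM in control libraries (SD, n = 4 each). The 4 *Notch2* tm1.1Ecan values are all higher, with a log2 fold change of 0.51 ± 0.09 (SE; adjusted p = 0.00303). *Itga10* had means of 41.2 ± 0.499 and 55.2 ± 2.17 CPM in the same order, and all 4 *Notch2* tm1.1Ecan values are lower. Its log2 fold change was -0.41 ± 0.06 (SE; adjusted p = 1.83e-05). *Itga2* was lower in every *Notch2* tm1.1Ecan vehicle library than in any control vehicle library, with a log2 fold change of -1.01 ± 0.26 (SE), adjusted p = 0.0292. This value rests on control vehicle replicate 4: without it, the log2 fold change was -0.64 (adjusted p = 0.0132). The call was lost without control vehicle replicate 3 (adjusted p = 0.0521) and without *Notch2* tm1.1Ecan vehicle replicate 1, 2, 3 or 4 (adjusted p = 0.11, 0.0555, 0.0901 and 0.0931), within adjusted p-values from 1.70e-07 to 0.11 over its alternatives. *Itga11* had means of 93.3 ± 3.10 CPM in *Notch2* tm1.1Ecan and 94.1 ± 4.42 CPM in control libraries, with overlapping groups and a log2 fold change of -0.01 ± 0.05 (SE; adjusted p = 0.968).

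The fibronectin receptor subunit *Itga5* had means of 361 ± 19.6 CPM in *Notch2* tm1.1Ecan and 289 ± 11.8 CPM in control vehicle libraries. The groups do not overlap, and the log2 fold change was 0.32 ± 0.05 (SE; adjusted p = 9.64e-05). The remaining matrix receptor subunits overlapped between genotypes in vehicle and were not called, with log2 fold changes of 0.13 ± 0.08 (SE; adjusted p = 0.428) for *Itgav*, 0.20 ± 0.09 (SE; adjusted p = 0.221) for *Itgb3* and 0.11 ± 0.06 (SE; adjusted p = 0.266) for *Itgb1*. *Itgb1* passed the threshold without *Notch2* tm1.1Ecan vehicle replicate 1, at 0.17 (adjusted p = 0.00164), within adjusted p-values from 0.00164 to 0.552 over its alternatives.

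The leukocyte subunits moved in opposite directions between genotypes in vehicle. *Itgb7* had means of 1.77 ± 0.273 CPM in *Notch2* tm1.1Ecan and 4.63 ± 0.815 CPM in control libraries. Each *Notch2* tm1.1Ecan library is below each control library, and the log2 fold change of -1.35 ± 0.19 (SE), adjusted p = 2.20e-05, was the largest fall among the 10 integrins between genotypes. *Itgal* rested on few reads, 9 to 15 counts in the control libraries and 25, 38, 23 and 67 counts in the *Notch2* tm1.1Ecan libraries, the last of which is the deepest of all 16. In CPM the *Notch2* tm1.1Ecan values are all higher, with a log2 fold change of 0.96 ± 0.28 (SE), adjusted p = 0.0268. That call was lost without control vehicle replicate 1 (adjusted p = 0.0650), without control vehicle replicate 4 (0.78, adjusted p = 0.0966) and without *Notch2* tm1.1Ecan vehicle replicate 2 or 4 (adjusted p = 0.0977 and 0.0678). It was also lost in a fit of all 16 libraries (adjusted p = 0.0581), and its adjusted p-values ran from 0.0228 to 0.0977 over its alternatives.

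Under TNFα the genotype comparison showed the vehicle pattern with more integrins called. *Itga1*, *Itga5* and *Itgal* were higher in *Notch2* tm1.1Ecan cells and *Itga2*, *Itga10* and *Itgb7* were lower, and *Itga11*, *Itgav* and *Itgb3* were called higher in addition. In counts, 6 of 10 integrins were higher, against 5.63% of the 19227 genes tested, and 3 lower, against 4.31%, or 9.94% in either direction. The median log2 fold change of the integrins was 0.26, beside -0.01 for all genes tested.

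With TNFα present, *Itga1* was higher in all 4 *Notch2* tm1.1Ecan libraries, with means of 67.7 ± 0.787 against 43.5 ± 7.44 CPM and a log2 fold change of 0.64 ± 0.09 (SE; adjusted p = 9.74e-05). *Itga11* was higher in all 4 as well, at 73.1 ± 2.76 against 54.2 ± 2.95 CPM, with a log2 fold change of 0.44 ± 0.07 (SE; adjusted p = 2.05e-05). So the pair of collagen receptor subunits that fell with TNFα stood above the control level in *Notch2* tm1.1Ecan cells after TNFα. The pair that rose with TNFα stood lower: *Itga2* had means of 21.6 ± 2.94 against 32.4 ± 4.85 CPM, with a log2 fold change of -0.53 ± 0.10 (SE; adjusted p = 0.000635). *Itga10* had means of 53.0 ± 1.88 against 72.9 ± 4.10 CPM, with a log2 fold change of -0.45 ± 0.06 (SE; adjusted p = 1.32e-05). Neither pair of groups overlaps, and in a fit of all 16 libraries the *Itga2* value was -0.54 (adjusted p = 0.112), within adjusted p-values from 1.06e-07 to 0.112 over its alternatives.

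*Itgb3*, the β3 subunit, was higher in all *Notch2* tm1.1Ecan TNFα libraries, at 24.7 ± 2.41 against 18.9 ± 1.51 CPM, with a log2 fold change of 0.42 ± 0.09 (SE; adjusted p = 0.00146). *Itgav* was also higher without overlap, with a log2 fold change of 0.26 ± 0.07 (SE; adjusted p = 0.0145). The *Itgav* call was lost without control TNFα replicate 2 or 3 (adjusted p = 0.101 and 0.104), without *Notch2* tm1.1Ecan TNFα replicate 3 (adjusted p = 0.0702) and in a fit of all 16 libraries (adjusted p = 0.0576), within 0.00169 to 0.104 over its alternatives. *Itga5* was called with overlapping groups, since control TNFα replicate 4 lies above *Notch2* tm1.1Ecan TNFα replicate 1, and its log2 fold change was 0.25 ± 0.07 (SE; adjusted p = 0.0127). Leaving out control TNFα replicate 4 gave 0.32 (adjusted p = 0.000215), and the call was lost without control TNFα replicate 1, 2 or 3 (adjusted p = 0.0618, 0.0644 and 0.0748) and without *Notch2* tm1.1Ecan TNFα replicate 2 (adjusted p = 0.0511), within 0.000215 to 0.0748 over its alternatives. The common partner *Itgb1* overlapped between genotypes and was not called, with a log2 fold change of 0.02 ± 0.06 (SE; adjusted p = 0.910).

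Among the leukocyte subunits under TNFα, *Itgb7* had means of 2.53 ± 0.664 CPM in *Notch2* tm1.1Ecan and 5.59 ± 0.993 CPM in control libraries. The groups do not overlap, and the log2 fold change was -1.07 ± 0.20 (SE; adjusted p = 0.000441). *Itgal* had 43, 45, 50 and 1 counts in *Notch2* tm1.1Ecan and 9, 21, 11 and 22 counts in control libraries. In 3 of 4 *Notch2* tm1.1Ecan libraries it lies above every control library, while the shallow replicate 4 with its 1 count lies below them. The log2 fold change was 1.42 ± 0.33 (SE; adjusted p = 0.00380), and 1.58 (adjusted p = 0.000191) without that library, within adjusted p-values from 7.01e-05 to 0.0319 over its alternatives.

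Whether TNFα acted differently in the 2 genotypes was tested directly by the interaction, in which a positive value means that the TNFα effect was more positive, or less negative, in *Notch2* tm1.1Ecan cells. *Itga11* was the 1 integrin of 10 called, against 0.474% of the 21321 genes tested, or 0.267% in that direction. The α11 level overlapped between genotypes in vehicle, and with TNFα it went from a mean of 94.1 ± 4.42 to 54.2 ± 2.95 CPM in control cells and from 93.3 ± 3.10 to 73.1 ± 2.76 CPM in *Notch2* tm1.1Ecan cells. All 4 *Notch2* tm1.1Ecan TNFα libraries lie above all 4 control TNFα libraries and below all 8 vehicle libraries. The interaction was 0.44 ± 0.08 (SE; adjusted p = 0.00547) on the log2 scale, and it was called under the 23 alternatives run without a fold cutoff, with adjusted p-values from 4.80e-05 to 0.0272. It does not meet the added log2 cutoff of 1.

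The other 9 integrins were not called for the interaction. Their values were 0.13 ± 0.16 for *Itga1*, 0.48 ± 0.32 for *Itga2*, -0.04 ± 0.09 for *Itga10* and -0.07 ± 0.09 for *Itga5* (SE). For the remaining subunits they were -0.10 ± 0.09 for *Itgb1*, 0.12 ± 0.11 for *Itgav*, 0.22 ± 0.13 for *Itgb3*, 0.27 ± 0.28 for *Itgb7* and 0.47 ± 0.46 for *Itgal*. The *Itga2* value rests on control vehicle replicate 4: it was 0.082 without that library and 0.042 without both control libraries numbered 4. The lowest adjusted p among these 9 was 0.686, for *Itgb3*, and *Itga11* was also the 1 integrin with an unadjusted p under 0.05 and the 1 called by DESeq2.

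Another 16 integrin subunit genes were measured the same way. Beside the 10, they show which partner chains were present. With TNFα, 2 of 15 tested were higher and 3 lower in control cells, against 23.3% and 20.9% of all genes tested. In *Notch2* tm1.1Ecan cells TNFα gave 3 higher and 3 lower of 16, against 22.6% and 21.9%. Between genotypes, 4 of 16 were higher and 2 lower in vehicle, against 6.19% and 4.35%, and 3 and 2 with TNFα, against 5.63% and 4.31%. None of the 16 was called by edgeR for the interaction, with 0 at an unadjusted p under 0.05 and 0 called by DESeq2.

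Partners of αv came out on both sides. *Itgb5*, the β5 partner of αv and the most abundant of the 16 at a mean of 305 CPM, fell with TNFα in both genotypes, with log2 fold changes of -0.36 (adjusted p = 2.63e-06) in control and -0.27 (adjusted p = 0.000585) in *Notch2* tm1.1Ecan cells. *Itgb8*, the β8 partner of αv in a receptor that activates latent TGFβ, rose with TNFα by 0.90 in control (adjusted p = 1.30e-06) and 0.91 in *Notch2* tm1.1Ecan cells (adjusted p = 8.55e-07).

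Partners of β1 differed in direction too. The laminin receptor subunits *Itga6* and *Itga3* fell with TNFα and were lower in *Notch2* tm1.1Ecan cells. For *Itga6* the log2 fold changes were -0.53 and -0.69 with TNFα in control and *Notch2* tm1.1Ecan cells, and -0.41 and -0.57 for genotype in vehicle and TNFα. The corresponding values of *Itga3* were -0.43, -0.39, -0.48 and -0.43. *Itga9*, which binds tenascin-C and other ligands, was higher in all 4 comparisons, at 0.52, 0.36, 0.58 and 0.42 in the same order. *Itga8*, an RGD-binding partner of β1, was higher in *Notch2* tm1.1Ecan cells, at 0.73 in vehicle and 0.52 with TNFα. With TNFα the *Itga8* call was lost without control TNFα replicate 3 (0.40, adjusted p = 0.0889) and without *Notch2* tm1.1Ecan TNFα replicate 2 or 3 (adjusted p = 0.0686 and 0.0768), within 0.00578 to 0.0889 over its alternatives.

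The leukocyte partners bear on what *Itgal* and *Itgb7* can form. *Itgb2*, the β2 chain that αL needs, averaged 2.56 CPM in control vehicle, 4.85 CPM in *Notch2* tm1.1Ecan vehicle, 3.24 CPM in control TNFα and 6.67 CPM in *Notch2* tm1.1Ecan TNFα libraries. It was higher in *Notch2* tm1.1Ecan cells, as *Itgal* was, with log2 fold changes of 0.91 ± 0.18 (SE; adjusted p = 0.000992) in vehicle and 0.99 ± 0.18 (SE; adjusted p = 0.000253) with TNFα. *Itgb2* also rose with TNFα in *Notch2* tm1.1Ecan cells, by 0.44 on the log2 scale (adjusted p = 0.0234). This call was lost without *Notch2* tm1.1Ecan vehicle replicate 3 or 4 (0.39, adjusted p = 0.0737 and 0.34, adjusted p = 0.119) and without *Notch2* tm1.1Ecan TNFα replicate 3 (0.43, adjusted p = 0.0621), within 0.00277 to 0.119 over its alternatives. Of the chains that pair with β7, *Itga4* averaged 1.32, 1.44, 1.86 and 2.06 CPM in the 4 groups in the order above and was called in none of the comparisons. *Itgae* averaged 0.0571, 0.0961, 0.0870 and 0.0897 CPM. *Itgad*, a β2 partner of macrophages, was called higher in *Notch2* tm1.1Ecan vehicle libraries, at 1.76 ± 0.56 (SE; adjusted p = 0.0466), and at 2.48 without control vehicle replicate 1. That call was lost when any of 6 libraries was left out (control vehicle replicates 2, 3 and 4, adjusted p = 0.0874, 0.125 and 0.114; *Notch2* tm1.1Ecan vehicle replicates 2, 3 and 4, adjusted p = 0.178, 0.0752 and 0.0975) and in a fit of all 16 libraries (adjusted p = 0.0640), within 0.0133 to 0.178 over its alternatives. The other 7, *Itga2b*, *Itga7*, *Itgam*, *Itgax*, *Itgb4*, *Itgb6* and *Itgae*, were called in no comparison.

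Ligands set what the receptors can hold. For this list and the lists below, the shares over all genes tested are the comparison. With TNFα, 23.3% were higher and 20.9% lower in control and 22.6% and 21.9% in *Notch2* tm1.1Ecan cells. Between genotypes the shares were 6.19% and 4.35% in vehicle and 5.63% and 4.31% with TNFα, and 0.474% were called for the interaction. Of 22 matrix ligands of integrins, 4 were higher and 8 lower of 21 tested with TNFα in control cells (median log2 fold change -0.06) and 8 and 7 of 22 in *Notch2* tm1.1Ecan cells (median 0.06). Between genotypes, 10 of 21 were higher and 6 lower in vehicle (median 0.09), and 10 and 5 of 21 with TNFα (median 0.23). *Ccn2*, a matricellular protein, had the largest fall with TNFα, at -2.79 in control and -3.57 in *Notch2* tm1.1Ecan cells. The control value was -3.36 without control TNFα replicate 4 and -3.41 without both control libraries numbered 4, and its interaction was not called (-0.77, adjusted p = 0.665). *Col4a1*, the basement membrane collagen that α1 binds, was the largest rise in *Notch2* tm1.1Ecan vehicle libraries, at 1.11 ± 0.06 (SE; adjusted p = 5.47e-12). The interaction was called for 2 of 22 ligands, the laminin chain *Lama4* at 0.53 ± 0.09 (SE; adjusted p = 0.00108) and tenascin-C, *Tnc*, at 0.50 ± 0.09 (SE; adjusted p = 0.00383). The most abundant ligand was fibronectin, *Fn1*, at a mean of 28971 CPM.

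Leukocyte integrins bind to adhesion molecules on other cells, and these rose widely with TNFα. Of 9 counter-receptors and ligands, 6 of 8 tested were higher and 0 lower in control cells (median log2 fold change 1.79), and 8 of 9 rose and 0 fell in *Notch2* tm1.1Ecan cells (median 1.40). DESeq2 called 3 of them in control and 7 in *Notch2* tm1.1Ecan cells, and gave *Icam1* and *Vcam1* no p-value in control cells. *Icam1*, the counter-receptor of αLβ2, was the most abundant, with log2 fold changes of 4.23 ± 1.09 (SE; adjusted p = 0.0205) in control and 6.07 ± 0.07 (SE; adjusted p = 2.87e-29) in *Notch2* tm1.1Ecan cells, and *Vcam1*, a counter-receptor of α4 integrins, had 3.59 ± 0.68 (SE; adjusted p = 0.00555) and 4.49 ± 0.07 (SE; adjusted p = 1.39e-26). Without control vehicle replicate 4, which held TNFα response transcripts, the control values were 6.10 for *Icam1* and 4.58 for *Vcam1*. With all 16 libraries the interaction was called for neither (1.83, adjusted p = 0.657, and 0.90, adjusted p = 0.746). These 2 values rest on control vehicle replicate 4: without it, 6.10 and 4.58 in control cells lie beside 6.07 and 4.49 in *Notch2* tm1.1Ecan cells. *Madcam1*, the gut-homing counter-receptor of α4β7, was at 0, 0, 0 and 0.536 CPM in control vehicle and 4.73, 5.38, 5.01 and 5.02 CPM in control TNFα libraries. In *Notch2* tm1.1Ecan libraries it went from 0, 0, 0.0519 and 0.0230 CPM to 5.63, 5.85, 6.61 and 6.62 CPM, at least 42.2-fold higher with the vehicle libraries set to a floor of 3 counts each (adjusted p = 1.14e-15). The control log2 fold change was 5.09 (adjusted p = 7.70e-06), and without control vehicle replicate 4, the 1 vehicle library of that genotype in which it had counts, the rise was at least 25.7-fold over the same floor. Between genotypes, 0 were higher and 1 lower of 9 in vehicle (median -0.38, or -0.31 with floor-bounded genes at their bound), where 2 had an unadjusted p under 0.05 and DESeq2 called 1. That median includes control vehicle replicate 4. The 9 genes summed to 130, 130, 143 and 653 CPM in control vehicle libraries and to 124 to 131 CPM in *Notch2* tm1.1Ecan vehicle libraries. The 1 lower was *Jam2*, at -0.31 ± 0.08 (SE; adjusted p = 0.0172), a call lost without control vehicle replicate 1 or 3 (-0.26, adjusted p = 0.0899 and -0.30, adjusted p = 0.0521), within 0.00713 to 0.0899 over its alternatives. With TNFα 1 was higher and 2 were lower (median 0.05), among them *Icam1* at -0.45 ± 0.07 (SE; adjusted p = 1.39e-05) and, higher, *Vcam1* at 0.32 ± 0.06 (SE; adjusted p = 0.00106). Both calls were lost in a fit of all 16 libraries (-0.47, adjusted p = 0.780, and 0.30, adjusted p = 0.773), within 3.52e-11 to 0.780 and 2.14e-05 to 0.773 over their alternatives.

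Adaptors join the integrin tails to actin. Of 27 activation and adhesion adaptor genes, 4 were higher and 16 lower of 25 tested with TNFα in control cells (median log2 fold change -0.29) and 3 and 15 of 25 in *Notch2* tm1.1Ecan cells (median -0.38). Between genotypes the counts leaned the other way, 16 higher and 1 lower of 25 in vehicle (median 0.29) and 12 and 1 of 25 with TNFα (median 0.20). *Lims2*, a PINCH adaptor of the integrin-linked kinase complex, had the largest falls with TNFα, at -1.97 and -2.64, and the kinase gene *Src* the largest rises, at 0.68 and 0.84. *Fermt3*, the kindlin of blood cells, had the largest rises in *Notch2* tm1.1Ecan cells, at 1.08 ± 0.23 (SE; adjusted p = 0.00181) in vehicle and 1.32 ± 0.24 (SE; adjusted p = 0.000293) with TNFα. The most abundant adaptor was *Flna*, at a mean of 1889.5 CPM, and *Fermt1* had 0 counts in all 16 libraries.

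In bulk cultures, fewer cells of a type and less RNA per cell cannot be told apart, so marker genes of the cell types that could be present are given beside the integrins. Chondrocyte markers were lower in *Notch2* tm1.1Ecan cells, all 16 of 16 in vehicle (median log2 fold change -0.62) and all 16 of 16 with TNFα (median -0.89), and 13 of 16 fell with TNFα in control and 13 of 16 in *Notch2* tm1.1Ecan cells (medians -0.41 and -0.66), with 0 higher in each of these. Their summed level was 55798, 53938, 53893 and 52003 CPM in control vehicle, 37666, 33033, 32447 and 34730.4 CPM in *Notch2* tm1.1Ecan vehicle, 38484, 38799.7, 37704 and 44713 CPM in control TNFα and 23337, 22410.0, 23061 and 20468 CPM in *Notch2* tm1.1Ecan TNFα libraries. *Itga10*, the cartilage collagen receptor subunit, was lower in *Notch2* tm1.1Ecan cells as these markers were, but higher with TNFα where they were lower. The part of the chondrocyte share of the cells in the integrin results was not tested.

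Macrophage markers were higher in *Notch2* tm1.1Ecan cells, as *Itgal* and *Itgb2* were, whereas the leukocyte subunit *Itgb7* was lower, as the chondrocyte markers were. Between genotypes 15 of 20 were higher in vehicle (median 1.16, or 0.99 with floor-bounded genes at their bound) and 16 of 19 with TNFα (median 1.23), with 0 lower in either. With TNFα 6 of 18 were higher and 1 lower in control cells, and 12 and 1 of 20 in *Notch2* tm1.1Ecan cells. Their summed level was 84.3, 90.8, 87.3 and 82.0 CPM in control vehicle, 185, 175, 176 and 156 CPM in *Notch2* tm1.1Ecan vehicle, 115, 105.1, 98.8 and 107 CPM in control TNFα and 239, 232, 210.1 and 209 CPM in *Notch2* tm1.1Ecan TNFα libraries. The most abundant was lysozyme, *Lyz2*, at a mean of 62.4 CPM, and none of the 20 was at 0 in all libraries. The part of macrophages in the *Itgal* and *Itgb2* results was not tested.

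*Itgal* is best known from lymphocytes, so their markers are given too. Of 16 T and NK cell markers, 6 had 0 counts in all 16 libraries (*Cd3e*, *Cd3g*, *Cd8a*, *Cd8b1*, *Ncr1* and *Klrk1*) and 5 more had at most 3 counts in any library, and the whole list summed to 0.838 to 4.15 CPM. Its most abundant gene was *Lck*, at a mean of 1.85 CPM. Of 6 B cell markers *Ms4a1* was at 0 in all libraries, and of 8 mast cell markers *Tpsb2*, *Fcer1a* and *Ms4a2* were. The B cell list summed to 0.0460 to 5.85 CPM, most of it *Pax5* at a mean of 2.25 CPM, and the mast cell list to 2.82 to 5.87 CPM, led by *Kit* at a mean of 3.63 CPM. Few of these markers were tested, and those called were, between genotypes, 1 T and NK marker in vehicle (*Trac*), which was higher, and 0 with TNFα, where 1 had an unadjusted p under 0.05 and DESeq2 called 0. The part of lymphocytes in the *Itgal* result was not tested.

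Smooth muscle markers, 6 genes that include actin-binding proteins of contractile cells, moved with *Itga1* and *Itga5*. All 6 fell with TNFα in both genotypes (medians -0.83 and -0.89), and 5 of 6 were higher in *Notch2* tm1.1Ecan cells in vehicle and 4 of 6 with TNFα (medians 0.97 and 0.79), with 0 lower. Their summed level was 2159, 2252, 2188 and 1969 CPM in control vehicle, 4364, 3916, 3947 and 3751 CPM in *Notch2* tm1.1Ecan vehicle, 1183, 1144, 1150.5 and 1357 CPM in control TNFα and 2118, 2115, 2013 and 2335 CPM in *Notch2* tm1.1Ecan TNFα libraries, led by *Acta2* at a mean of 1591 CPM, and none was at 0. The part of contractile cells in the integrin results was not tested.

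Fibroblast and perichondrium markers moved in both directions. With TNFα 5 of 12 were higher and 4 lower in control and 4 and 2 in *Notch2* tm1.1Ecan cells, and between genotypes 6 were higher and 2 lower in vehicle and 7 and 1 with TNFα (medians 0.02, 0.11, 0.17 and 0.26). They summed to 35449, 34148, 32456 and 33450.5 CPM in control vehicle, 39680.1, 38912, 37034 and 38675 CPM in *Notch2* tm1.1Ecan vehicle, 34173, 32144, 31658 and 34747 CPM in control TNFα and 41288, 41625, 43456 and 35491 CPM in *Notch2* tm1.1Ecan TNFα libraries, and none was at 0. *Itga11*, typical of fibroblasts, was higher in *Notch2* tm1.1Ecan cells with TNFα but not called in vehicle, at -0.01, while these sums were higher in all *Notch2* tm1.1Ecan libraries than in all control libraries in both. The part of fibroblasts in the *Itga11* result was not tested.

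**Figure D3:**
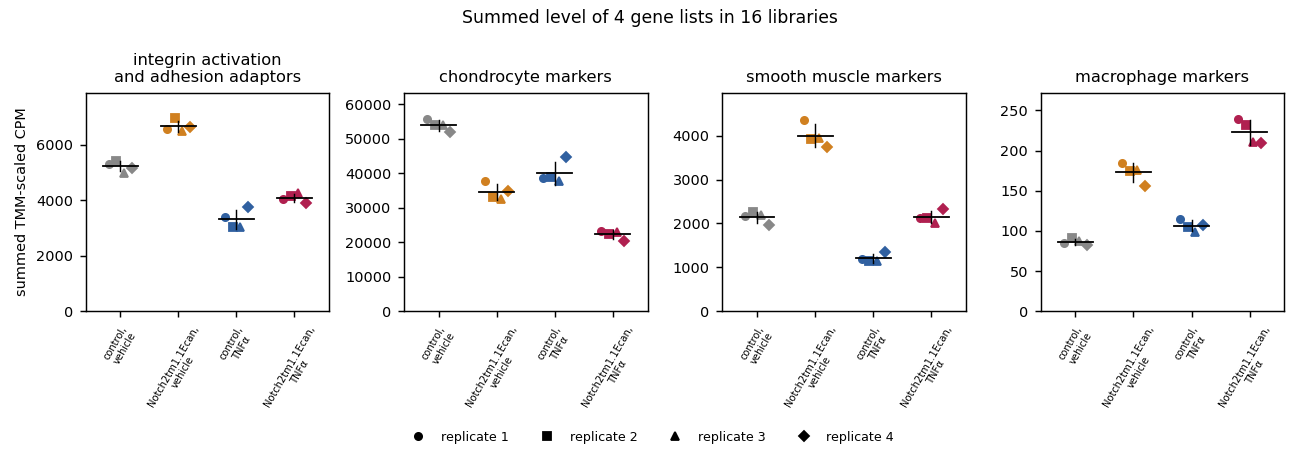
Summed level of marker lists in CPM (y axis) for the 4 groups of genotype and treatment (x axis); points are libraries. Macrophage markers lie between 156 and 239 CPM in the *Notch2* tm1.1Ecan libraries and between 82.0 and 115 CPM in the control libraries.

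The genomic position of the 10 genes adds a shared feature. *Itga1* and *Itga2* are neighbours on chromosome 13, both on the minus strand (GRCm39, GENCODE M39): *Itga2* (ENSMUSG00000015533) spans 114969617 to 115068636 and *Itga1* (ENSMUSG00000042284) spans 115089632 to 115238677. They encode related collagen receptor subunits, yet *Itga1* fell and *Itga2* rose with TNFα in both genotypes, and *Itga1* was higher and *Itga2* lower in *Notch2* tm1.1Ecan cells. *Itga5* (ENSMUSG00000000555) and *Itgb7* (ENSMUSG00000001281) share chromosome 15, at 103252713 to 103275270 and 102124429 to 102140379, both on the minus strand. The remaining genes lie on chromosome 3 (*Itga10*, ENSMUSG00000090210, 96552900 to 96571835), 9 (*Itga11*, ENSMUSG00000032243, 62585108 to 62691617), 2 (*Itgav*, ENSMUSG00000027087, 83554403 to 83637260), 8 (*Itgb1*, ENSMUSG00000025809, 129411876 to 129460618), 11 (*Itgb3*, ENSMUSG00000020689, 104498826 to 104561302) and 7 (*Itgal*, ENSMUSG00000030830, 126895432 to 126934320), all on the plus strand.

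Exons of 4 integrins overlap those of other genes. *Mocs2*, on the opposite strand, shares 2180 bases with *Itga1* (10.2% of its exon bases) and 444 bases with *Itga2* (6.22%), and had a mean of 34.5 CPM. *Itga10* shares 1739 bases (33.5%) with *Gm42957* on the same strand, which had 19 counts over all libraries. *Itga1* also shares 685 bases (3.21%) with *Gm49395*, which had 17 counts in all, and *Itgav* shares 634 bases (5.14%) with *Gm13684*, which had 0 counts. The libraries were stranded, but the strand setting and mode of the counting are not given. Reads in exons shared with the opposite strand may be missing from the levels of these genes if strand was ignored. Reads in exons shared on the same strand, as for *Itga10* and *Gm42957*, may be missing under either strand setting.

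The sequences before the start of *Itga2* and *Itga10* are shown because these are the collagen receptor subunits that rose with TNFα and were lower in *Notch2* tm1.1Ecan cells. RefSeq promoter entries (GRCm38.p6) were found for 8 of the 10 integrins, the exceptions being *Itgb3* and *Itgal*. The 250 bases upstream of each were searched on both strands for the NF-κB consensus, the RBPJ core TGGGAA, the AP-1 site TGANTCA and the GC box GGGCGG. The first 3 were found in 0 of the 8 windows, against 7.25%, 21.6% and 6.75% of 32851 promoters, and the GC box in 2 of 8, *Itga5* and *Itgb1*, against 32.7%. These counts describe the letters in 1 window for each gene and nothing beyond it. The *Itga2* window is chr13:114932101-114932350 on the minus strand, with 60.8% G and C, and the *Itga10* window is chr3:96645334-96645583 on the plus strand, with 48.0% G and C.
Itga2: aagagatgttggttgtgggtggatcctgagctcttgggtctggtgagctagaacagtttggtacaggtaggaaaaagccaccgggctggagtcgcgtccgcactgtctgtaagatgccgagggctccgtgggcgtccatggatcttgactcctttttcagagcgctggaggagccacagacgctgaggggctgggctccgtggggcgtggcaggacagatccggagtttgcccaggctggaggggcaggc
Itga10: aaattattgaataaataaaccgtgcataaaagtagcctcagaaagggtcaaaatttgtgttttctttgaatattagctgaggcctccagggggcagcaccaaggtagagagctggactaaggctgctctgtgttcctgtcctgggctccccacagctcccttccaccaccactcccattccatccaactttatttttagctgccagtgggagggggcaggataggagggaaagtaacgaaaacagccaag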

How the data were processed

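Poly(A) RNA of 16 cultures was sequenced in paired-end mode by the authors, who, per the labels, aligned reads to GRCm38 with HISAT2 2.1.0 and counted them with HTSeq. The study's methods name a later build and version, and no source used here gives the strand setting or counting mode. The deposited values are raw counts for 55414 Ensembl identifiers, of which 665 are absent from GENCODE M39 (GRCm39), used for symbols, positions and exon lengths. Entries that name no gene held 8.81% to 12.1% of counts and were left out. Library depth is given with the groups.

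Counts were scaled by TMM and tested with edgeR 4.0.16 (quasi-likelihood, robust) in R 4.3.3, for each pair of groups on its own 8 libraries and for the interaction on all 16. Genes with at least 10 counts summed over the libraries of a fit were tested, adjusted by Benjamini-Hochberg and called at 0.05 with no fold cutoff. The biological coefficient of variation was 7.65% to 9.98%. Alternatives were DESeq2 1.42.0, RLE scaling, filterByExpr, no filter beyond 1 count, a threshold of 0.1, a log2 cutoff of 1, 1 fit of all 16 libraries, a replicate block, each library left out in turn, both control libraries numbered 4 left out, and the longest transcript as length. Tables and figures used pandas 2.3.3, matplotlib 3.10.9 and numpy 2.4.6 in Python 3.11.15. The code was tested on simulated data.

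The 10 integrins, the gene lists and the tests were chosen with earlier results of these data known. All 10 integrins and 16 other subunits were named, with *Notch2*, *Heyl* and *Icam1* as checks of the labels. Of each list the largest rise and fall among called genes, the most abundant gene and genes at 0 could be named; the text gives some of these, and they and other named genes were picked with their values in view. Protein sequences were not available, so planned features of the proteins were left out.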

Additional observations from a re-analysis of the deposited data

Results flagged for a closer look

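The 10 integrins and 16 other subunits were examined in 4 groups for 1 library far from the other 3, which chance gives in about 1 of 20 such groups, and 12 of 104 were found. Among the 10 integrins, *Itga5* in *Notch2* tm1.1Ecan vehicle replicate 1 stood at 389.7 CPM, against 348 to 355 in the other 3. *Itga5* in control TNFα replicate 4 stood at 209 CPM, against 169 to 173. *Itga11* in *Notch2* tm1.1Ecan vehicle replicate 3 stood at 88.6 CPM, against 94.5 to 95.4. *Itgb3* in *Notch2* tm1.1Ecan vehicle replicate 1 stood at 12.5 CPM, against 14.3 to 14.6. *Itgal* in *Notch2* tm1.1Ecan TNFα replicate 4 stood at 0.276 CPM, a single count in the shallowest library, against 2.63 to 2.92.

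Among the other subunits, *Itga6* in *Notch2* tm1.1Ecan TNFα replicate 4 stood at 30.1 CPM, against 30.7 to 30.8, a gap of 0.63 CPM that is smaller than the counting error of 2.88 CPM of its 109 counts. *Itga7* in *Notch2* tm1.1Ecan vehicle replicate 1 stood at 22.0 CPM, against 18.9 to 19.1. *Itgad* in *Notch2* tm1.1Ecan vehicle replicate 2 stood at 1.03 CPM, against 0.482 to 0.575, and *Itgax* in *Notch2* tm1.1Ecan vehicle replicate 3 stood at 0.986 CPM, against 0.506 to 0.551. *Itgae* in control vehicle replicate 2 stood at 0.228 CPM, which is 3 counts, against 0 in the other 3. *Itgb5* stood at 306 CPM in control vehicle replicate 4, against 345 to 353, and at 373 CPM in *Notch2* tm1.1Ecan vehicle replicate 1, against 323 to 331.

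The TNFα effect differed between genotypes, by the interaction test of edgeR, for 5 genes of the lists. *Itga11* differed by 0.44 on the log2 scale (adjusted p = 0.00547), the laminin chain *Lama4* by 0.53 (adjusted p = 0.00108) and tenascin-C, *Tnc*, by 0.50 (adjusted p = 0.00383). The smooth muscle marker *Cnn1* differed by -0.68 (adjusted p = 0.0305), within 5.15e-06 to 0.0933 over its alternatives, and its call was lost without control vehicle replicate 2 or 3 (adjusted p = 0.0640 and 0.0564), control TNFα replicate 4 (-0.48, adjusted p = 0.0563) or *Notch2* tm1.1Ecan TNFα replicate 1, 2 or 4 (adjusted p = 0.0933, 0.0512 and 0.0666) and with a replicate block (adjusted p = 0.0724). The cartilage matrix gene *Matn1* differed by -0.41 (adjusted p = 0.0305), within 0.00103 to 0.111 over its alternatives, and its call was lost without *Notch2* tm1.1Ecan vehicle replicate 4 (adjusted p = 0.0604), control TNFα replicate 2 or 4 (adjusted p = 0.0521 and 0.0563) or *Notch2* tm1.1Ecan TNFα replicate 2 or 3 (adjusted p = 0.0769 and 0.111), and without both control libraries numbered 4 (-0.31, adjusted p = 0.0848).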

How the results depend on the processing

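For the 10 integrins, 50 results were recomputed in 839 alternatives, of which 796 kept direction and side of the threshold, 19 lost a call, 15 gained one and 9 turned direction. In 37 of the 50 each of these kept both; a log2 cutoff of 1 is not among them. The values that turned direction were of differences that were not called: *Itgal* with TNFα in control cells was -0.12 without both control libraries numbered 4, and as single libraries were left out *Itga11* between genotypes in vehicle ranged from -0.034 to 0.019, *Itgb1* between genotypes with TNFα from -0.019 to 0.069 and the interaction of *Itga5* from -0.106 to 0.0052, which became 0.033 without both control libraries numbered 4. The cause was not tested.

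Adding a log2 fold change of at least 1 left 2 integrins and 2279 genes called with TNFα in control cells, 1 and 2720 in *Notch2* tm1.1Ecan cells, 2 and 244 between genotypes in vehicle, 2 and 272 with TNFα, and 0 and 10 for the interaction, since fewer genes meet a second condition. The 101 genes called for the interaction became 206 by DESeq2 and 266 with no filter beyond 1 count, and ranged from 51 (without *Notch2* tm1.1Ecan TNFα replicate 3) to 156 (without *Notch2* tm1.1Ecan vehicle replicate 1), with 66 without *Notch2* tm1.1Ecan vehicle replicate 2, as single libraries were left out. The cause was not tested. Of 1189 alternatives for 77 results of other genes, 1150 kept direction and side and 39 lost the call.

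The labels repeat replicate numbers across groups without saying that they pair samples. Deviations of libraries with the same number correlated between -0.19 and 0.142, and those of libraries with different numbers between -0.174 and 0.152. With a replicate block, 74 genes were called for the interaction, and the *Itga11* interaction was 0.45 (adjusted p = 0.0135).

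Depth limits *Itgal*, which had 1 to 67 counts a library, and the *Notch2* tm1.1Ecan TNFα group through its library of 3439726 counts. Reads cannot tell a change in a cell's RNA from a change in the mix of cells, and mRNA levels do not give receptor at the cell surface.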

Other observations

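Further lists of cell types and signals gave the following counts, with medians of log2 fold changes over the tested genes of a list. Some of their genes also stand in the lists above, such as *Itga2b* among the platelet markers and *Icam1* among the TNFα response genes. Osteoclasts resorb bone with the help of αvβ3, and their markers had 5 of 7 tested higher with TNFα in control cells (median 1.12) and 3 of 7 in *Notch2* tm1.1Ecan cells (median 0.34), with 0 lower in both. Between genotypes edgeR called 0 of 6 in vehicle, where 2 had an unadjusted p under 0.05 and DESeq2 called 0 (median 0.28), and 1 of 7 with TNFα, which was higher (median -0.021). These markers summed to 181 to 209 CPM in vehicle and 219 to 243 CPM in TNFα libraries, led by *Ctsk* at a mean of 176 CPM, while the fusion genes *Ocstamp* and *Dcstamp* had at most 3 counts in any library.

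Endothelial markers had 4 of 8 higher in *Notch2* tm1.1Ecan cells in vehicle (median 1.09) and 3 of 8 with TNFα (median 0.90), with 0 lower, and 1 of 8 higher with TNFα in control cells (median 0.30). With TNFα in *Notch2* tm1.1Ecan cells edgeR called 0 of 8, with 1 at an unadjusted p under 0.05 and 0 called by DESeq2 (median -0.0079). They summed to 8.73 to 14.2 CPM in control and 18.3 to 27.3 CPM in *Notch2* tm1.1Ecan libraries, led by *Tek* at a mean of 10.3 CPM. Platelet and megakaryocyte markers summed to 3.29 to 5.73 CPM, led by *Itga2b*, with *Gp9* at 0 in all libraries. Of these, 1 of 4 was lower with TNFα in control cells (median 0.0037), 1 of 4 lower in *Notch2* tm1.1Ecan vehicle (median -0.14) and 1 of 4 higher in *Notch2* tm1.1Ecan TNFα libraries (median -0.28).

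Among lymphocyte and mast cell markers with TNFα, 1 T and NK marker of 4 tested was lower in control cells (median 0.15, or 0.0 with floor-bounded genes at their bound), and 1 was higher and 1 lower of 4 in *Notch2* tm1.1Ecan cells (median 0.92). Of B cell markers, 2 of 2 were higher in control and 1 of 1 in *Notch2* tm1.1Ecan cells, where *Pax5* was at least 27.8-fold higher over a floor of 3 counts per vehicle library. Of mast cell markers, 1 of 2 was higher in control and 1 of 3 in *Notch2* tm1.1Ecan cells, the histidine decarboxylase gene *Hdc* in both, at least 3.89-fold and 8.59-fold over the same floor.

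The response lists follow the treatment and the genotype. Of 12 TNFα response genes, 10 were higher with TNFα in control cells (median 3.68) and 12 in *Notch2* tm1.1Ecan cells (median 4.84). DESeq2 called 5 and 12 of them, and the control comparison includes vehicle replicate 4, where the 12 summed to 1450 CPM, against 185 to 199 CPM in the other 3 libraries of its group. Between genotypes edgeR called 0 of these 12 in vehicle, with 0 at an unadjusted p under 0.05 and 0 called by DESeq2 (median -0.82), and 3 higher and 2 lower with TNFα (median 0.094). The vehicle median between genotypes includes control vehicle replicate 4 as well. In *Notch2* tm1.1Ecan vehicle libraries the 12 summed to 201 to 209 CPM, above the 185 to 199 CPM of the other 3 control vehicle libraries. Of 5 Notch genes, 3 were called higher between genotypes in vehicle (median 0.61) and 2 with TNFα (median 0.53), and TNFα lowered 2 in control and 3 in *Notch2* tm1.1Ecan cells and raised 0 and 1 (medians -0.91 and -1.40, the latter -1.03 with floor-bounded genes at their bound). *Notch2* itself had a log2 fold change of 0.53 ± 0.12 (SE; adjusted p = 0.0178) between genotypes with TNFα, a call lost without *Notch2* tm1.1Ecan TNFα replicate 3 or 4 (0.48, adjusted p = 0.0567 and 0.50, adjusted p = 0.108), within 3.07e-13 to 0.108 over its alternatives.

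For the interaction of genotype and TNFα, edgeR called 1 of 16 chondrocyte markers (*Matn1*) and 1 of 6 smooth muscle markers (*Cnn1*), both lower. It called 0 of 26 adaptors (6 at an unadjusted p under 0.05, 0 by DESeq2), 0 of 9 counter-receptors (1 and 0), 0 of 20 macrophage markers (3 and 0) and 0 of 12 fibroblast and perichondrium markers (4 and 2).

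Across the 16 libraries, which share their treatment and genotype clusters, the genes most like each integrin in log2 level were found by Pearson's r, given as a description. They were *Slc38a4* (0.988) and *Celf2* (0.985) for *Itga1*, *Slc7a2* (0.991) and *Ifit2* (0.990) for *Itga2*, and *Dysf* (0.995) and *Actn1* (0.995) for *Itga5*. *Serpine2* (0.984) and an identifier absent from the annotation (0.973) were most like *Itga10*, *Ndnf* (0.978) and *Eef2k* (0.967) most like *Itga11*, and *Kmt2a* (0.984) and *Syne2* (0.983) most like *Itgav*. For *Itgb1* they were *Cbx5* (0.981) and *Xpo7* (0.975), for *Itgb3* *Cacna1g* (0.980) and *Aldh1a2* (0.978), for *Itgb7* *Cryzl2* (0.954) and *Stk32b* (0.942), and for *Itgal* *Col3a1* (0.902) and *Col1a2* (0.877). Among the 10 integrins the highest r was 0.946, for *Itga1* and *Itga5*, and the lowest -0.975, for *Itga2* and *Itga5*.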
